A study of Triticum aestivum with 4 samples.

Results

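Wx-A1 (LOC543395) and AGP-S (LOC543299) code for enzymes at neighbouring steps of starch synthesis, and their transcripts are described here in young wheat grain. They are 2 of the 771 genes that the array annotation pairs with a probe set. Each gene has 1 probe set, a group of short probes on the array that is read out as 1 value. The genes were taken by name and synonym, and any further probe set whose ID starts with the same transcript-cluster name was added and kept apart. The Wx-A1 cluster held no further probe set, and the AGP-S cluster held 1, for which no gene is listed, called the cluster mate below. Both genes had been selected on their RL4452 minus Domain values, so their genotype differences are given below as descriptions, with no test.

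Whole developing seed of hexaploid wheat (Triticum aestivum) was taken from field plots 5 days after anthesis, the day the anthers became visible. The groups were the genotypes Domain and RL4452, which are the parents of a mapping population (Domain is named AC Domain there). Each had 2 biological replicates, numbered 1 and 3 in the labels. No treatment is stated beyond tagging of the spikes, and all plants grew at the same location, called SB. Each of the 4 arrays read polyA RNA from a tube of pooled seeds.

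Starch is built from ADP-glucose, which ADP-glucose pyrophosphorylase makes from glucose 1-phosphate and ATP. That enzyme is an assembly of small and large subunits, and AGP-S is a small-subunit gene. In cereal endosperm much of the enzyme lies in the cytosol and the ADP-glucose is carried into the plastid, where starch synthases lengthen glucan chains. The granule-bound starch synthase, named waxy after mutant grain without amylose, makes the amylose fraction, while other synthases and branching enzymes build amylopectin. Hexaploid wheat has waxy genes in each of its genomes, Wx-A1, Wx-B1 and Wx-D1, which act in endosperm and pollen, whereas the granule-bound synthase of the pericarp is a different gene. The grain at this stage still holds much pericarp beside a young endosperm, and in whole seed fewer cells of a type and less RNA per cell cannot be told apart.

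Each value is the ratio of an array to the median of that probe set, shown here on the log2 scale, so that 0 is the median and 1 is a doubling. They keep differences between arrays but not the level of a gene against another gene, and presence or absence of a transcript or of a tissue marker cannot be read from them. Of 61179 probe sets tested with limma, 171 (0.28%) passed a Benjamini-Hochberg adjusted p of 0.05, and 79 (0.129%) were higher and 92 (0.15%) lower in RL4452. These calls depend on the model, since limma called 0 with the replicate number as a block. The count also changed with an array of either genotype left out, where only 1 array remains in that genotype. The median absolute difference between genotypes was 0.17, and that between replicates was 0.24 in Domain and 0.24 in RL4452.

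The probe set of the granule-bound starch synthase gene read higher in RL4452. The Wx-A1 probe set read a ratio of 0.411 in Domain replicate 1, 0.25 in Domain replicate 3, 1.76 in RL4452 replicate 1 and 1.59 in RL4452 replicate 3. On the log2 scale these values are -1.28, -2.00, 0.82 and 0.67. The RL4452 arrays were both above the Domain arrays, as in 17% of all tested probe sets, and the lowest RL4452 value was 1.95 above the highest Domain value. Domain averaged -1.64 ± 0.51 and RL4452 averaged 0.74 ± 0.11 (SD, n = 2). RL4452 thus exceeded Domain by 2.39 on the log2 scale (SE 0.29 in the limma fit), which is 5.22-fold. Among all tested probe sets 91 had a larger difference in the same direction, and 98 had a gap between the genotypes at least as wide, counting Wx-A1 itself.

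Most of the spread in Wx-A1 within a genotype was in Domain. Replicate 3 differed from replicate 1 by -0.72 in Domain, and 8.1% of tested probe sets had a larger absolute replicate difference there. In RL4452 the replicates differed by -0.15, with 65.3% of tested probe sets showing more. Compared within the shared replicate number, RL4452 exceeded Domain by 2.10 in replicate 1 and by 2.67 in replicate 3. The genotype difference was thus larger than either replicate difference. Whether the probe set also reads transcripts of Wx-B1 and Wx-D1, which are closely related in sequence, was not tested. The values may thus be those of more than the A-genome copy. No sequences were used, so whether the probes match both genotypes equally was not tested, for Wx-A1 or any other probe set.

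**Figure D1:**
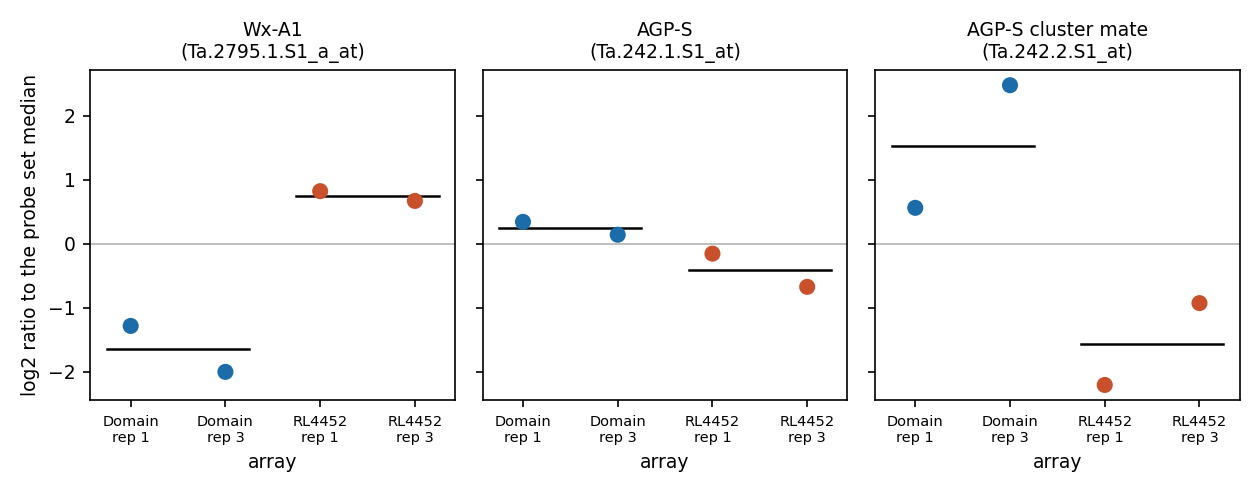
Log2 ratio to the probe set median (y axis) in each of the 4 arrays (x axis, Domain in blue and RL4452 in orange) for Wx-A1, AGP-S and the AGP-S cluster mate; black lines are genotype means of 2 arrays. Wx-A1 is lower in Domain (-1.28 and -2.00) than in RL4452 (0.82 and 0.67), while both AGP-S cluster probe sets are higher in Domain, the further one over a wider range.

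The AGP-S probe set read lower in RL4452, by much less than that of Wx-A1 read higher. Its ratios were 1.27 in Domain replicate 1, 1.10 in Domain replicate 3, 0.898 in RL4452 replicate 1 and 0.627 in RL4452 replicate 3. The log2 values were 0.34, 0.14, -0.16 and -0.67. The genotypes did not overlap, Domain being the higher, as in 15.5% of all tested probe sets, but the nearest pair was only 0.295 apart. Domain averaged 0.24 ± 0.14 and RL4452 averaged -0.41 ± 0.37 (SD, n = 2). The log2 difference was -0.66 (SE 0.24), which is 1.57-fold lower in RL4452.

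RL4452 replicate 3 held the lowest of the 4 AGP-S values, and without that array the log2 difference was -0.40. The AGP-S replicates differed by -0.52 in RL4452 and by -0.20 in Domain. In the deposited values the genotype difference was thus only slightly larger than the replicate difference in RL4452. After quantile normalization the genotype difference was -0.555, and the replicates differed by -0.274 in RL4452 and by -0.167 in Domain. Over all tested probe sets, 7.05% had a larger absolute genotype difference in the deposited values. The RNA of RL4452 replicate 3 also gave the highest difference between the 3' and 5' ends of the wheat control transcripts, a median over 7 probe set pairs of 0.40 on the log2 scale, against -0.22 in RL4452 replicate 1 and values at or near 0 (0.00 and -0.002) in Domain. The 18S rRNA control, left over in RNA enriched for polyA tails, varied more, with log2 values of 0.75 and -1.68 in Domain replicates 1 and 3, against 2.04 and -3.12 in RL4452. It was lowest in RL4452 replicate 3, as was AGP-S, while Wx-A1 was lowest in Domain replicate 3. In both genotypes the 18S rRNA control was lower in replicate 3 than in replicate 1, as were AGP-S and Wx-A1. The AGP-S cluster mate was higher in replicate 3 in both. The share of all tested probe sets that were lower in replicate 3 in both genotypes was not computed. The part of the end difference and of the rRNA in the values of these genes was not tested. Whether this probe set tells apart the 2 RefSeq transcripts listed for AGP-S was not tested. In barley and wheat, small-subunit transcripts for the cytosolic and the plastid enzyme are known to arise from the same gene through alternative starting exons.

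The cluster mate of AGP-S was also lower in RL4452 but over a much wider range. It read ratios of 1.47 in Domain replicate 1, 5.55 in Domain replicate 3, 0.217 in RL4452 replicate 1 and 0.526 in RL4452 replicate 3. The log2 values were 0.56, 2.47, -2.20 and -0.93. Again Domain was the higher without overlap, and the nearest pair was 1.49 apart. Domain averaged 1.52 ± 1.35 and RL4452 averaged -1.57 ± 0.90 (SD, n = 2). The log2 difference was -3.08 (SE 0.75), which is 8.47-fold lower in RL4452. From its lowest to its highest array the cluster mate spanned 25.6-fold, a range exceeded by 0.154% of tested probe sets. AGP-S itself spanned 2.02-fold and Wx-A1 7.06-fold.

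Within the cluster, AGP-S and its mate ranked the replicates oppositely. Replicate 3 was above replicate 1 in the cluster mate, by 1.91 in Domain and 1.28 in RL4452, and below it in the AGP-S probe set in both genotypes. Only 0.526% of tested probe sets had a larger absolute replicate difference in Domain than the cluster mate. The log2 value of the cluster mate minus that of AGP-S was 0.22 in replicate 1 and 2.33 in replicate 3 of Domain. In RL4452 it was -2.05 in replicate 1 and -0.25 in replicate 3. That difference ranged over 4.38 between arrays. Both were lower in RL4452 but opposite in the order of the replicates, and with no gene listed the values of the cluster mate are not read here as those of AGP-S.

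**Figure D2:**
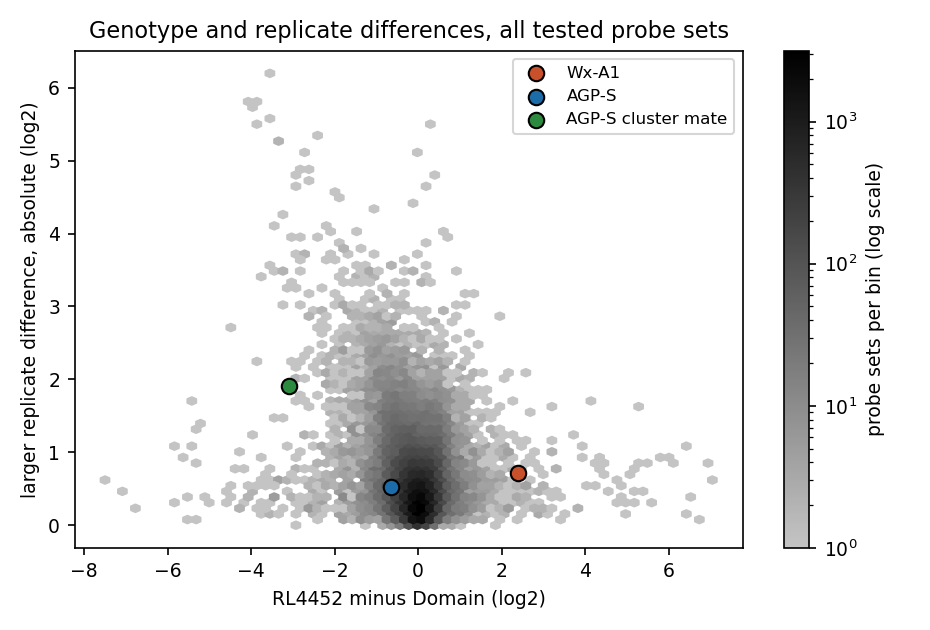
RL4452 minus Domain on the log2 scale (x axis) against the larger of the 2 absolute replicate differences (y axis, log2) for all 61179 tested probe sets, shaded by the number per bin on a log scale. Wx-A1 stands at a genotype difference of 2.39 with replicate differences of at most 0.72, AGP-S at -0.66 within the dense part, and the cluster mate at -3.08 with a replicate difference of 1.91.

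The array settings gave a possible batch. Domain replicate 3 and RL4452 replicate 1 were run on the same fluidics module, and the other arrays each on a module of their own. Between those 2 arrays the RL4452 minus Domain difference was 2.82 for Wx-A1, -0.295 for AGP-S and -4.68 for the cluster mate. The values of Wx-A1 and the cluster mate were larger in size than over all arrays, and that of AGP-S was smaller. Since the genotypes do not overlap in these probe sets, any pair of arrays has the same direction, and the direction is no check on the module. Each array had its own hybridization day, so day and array cannot be told apart.

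Few other enzymes of starch and sucrose metabolism could be named. The name patterns for starch synthesis, sucrose cleavage and starch breakdown found 2 further probe sets. Neither was called in either direction (limma, all probe sets, background 0.28%), with 0 at an unadjusted p under 0.05, and their median difference was -0.22 against 0.01 over all tested probe sets. BMY1 (LOC543318, also listed as amy1), by that name a beta-amylase, an enzyme that splits maltose from starch chains, read log2 values of 0.18 and 0.06 in Domain replicates 1 and 3, against -0.06 and -0.64 in those of RL4452. The genotypes did not overlap, as in 15.5% of all tested probe sets in that direction, and the difference was -0.47 with an SE of 0.25 (limma adjusted p = 0.947). LOC543415, with the invertase-type synonym IVR1 beside the unrelated synonym atpA, read -0.13 and 0.08 in Domain, against -0.05 and 0.05 in RL4452, and its genotypes overlapped (difference 0.02 with an SE of 0.18, limma adjusted p = 1).

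The large-subunit gene AGP-L has the synonym AGA.3 in the gene table, but no probe set was listed for it. LOC543278 carries the like name AGA.1 alone, and whether it is a large-subunit gene is not given there. It was added after its values had been seen. The probe set of AGA.1 marked S1 in its ID read log2 values of 0.73 and -0.06 in Domain replicates 1 and 3, against -0.01 and 0.01 in RL4452. The A1 probe set read -0.52 and 0.27 in Domain, against -0.22 and 0.19 in RL4452. The genotypes overlapped in both probe sets, and the differences were -0.34 with an SE of 0.30 and 0.11 with an SE of 0.33 (limma adjusted p = 0.977 and 1).

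Sucrose synthase, which cleaves the sucrose entering the grain and so feeds starch synthesis, is on the array as a control transcript with probe sets at its 3' end, middle and 5' end. These were added after values had been seen, and they stand outside the fit with no test. At the 3' end the log2 values were 0.46 and 0.24 in Domain replicates 1 and 3, against -0.29 and -1.27 in the same replicates of RL4452. In the middle they were 0.35, 0.12, -0.13 and -2.77, and at the 5' end 0.34, 0.08, -0.09 and -1.65. All 3 placed the Domain arrays above those of RL4452, against 15.5% of all tested probe sets, with RL4452 replicate 3 far below the rest. Sucrose synthase is itself among the 7 pairs of the end comparison above.

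**Figure D3:**
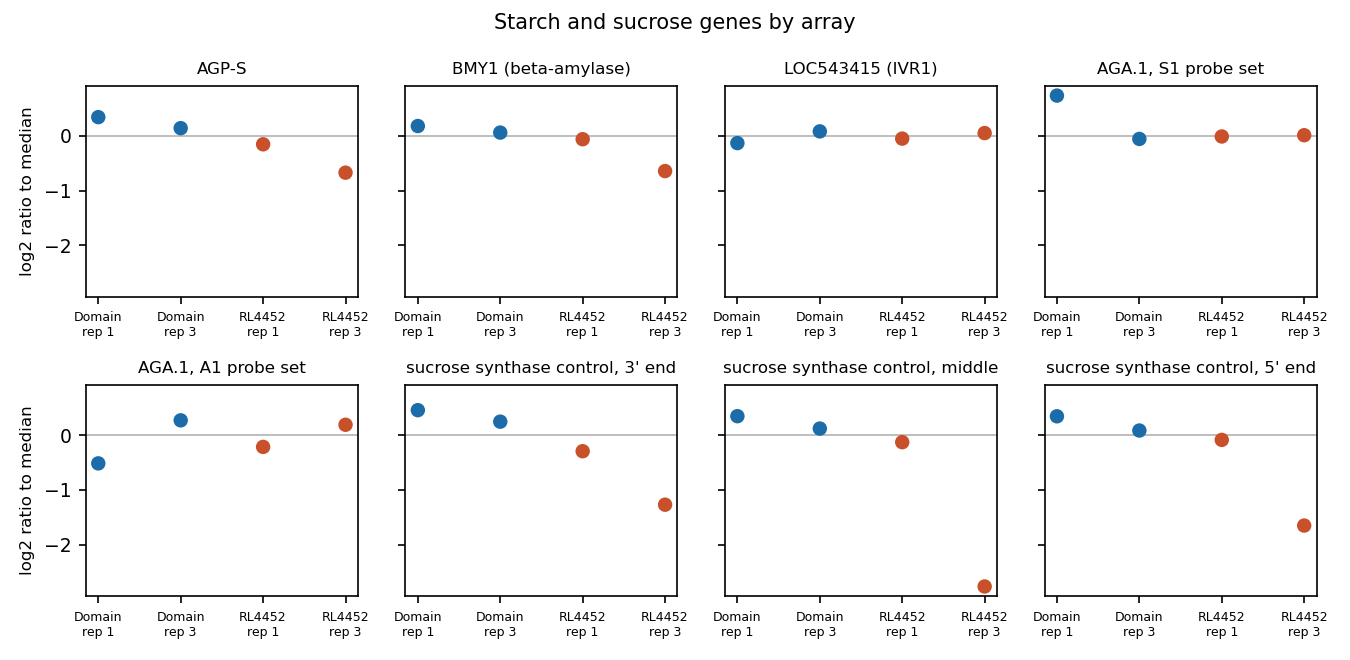
Log2 ratio to the probe set median (y axis) by array (x axis, Domain in blue and RL4452 in orange) for AGP-S, the other named starch and sucrose probe sets and the sucrose synthase controls. RL4452 replicate 3 is the lowest array for AGP-S (-0.67), BMY1 (-0.64) and all 3 sucrose synthase probe sets (-1.27, -2.77 and -1.65), and not for LOC543415 or AGA.1.

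AGP-S, BMY1 and the 3 sucrose synthase probe sets ranked the arrays in the same order, from Domain replicate 1 through Domain replicate 3 and RL4452 replicate 1 to RL4452 replicate 3. That order held in 5.13% of all tested probe sets. Other orders were seen in LOC543415 and the A1 probe set of AGA.1 (both the order of 5.92% of tested probe sets). The S1 probe set of AGA.1 (2.71%) and the AGP-S cluster mate (3.69%) also had other orders. The Wx-A1 order, with RL4452 replicate 1 highest and Domain replicate 3 lowest, held in 3.32%. The sucrose synthase probe sets share a transcript and are not separate cases.

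Probe sets with patterns like those of the members were ranked by the root mean square of the log2 differences over the 4 arrays. For Wx-A1 the median over all tested probe sets was 1.31, and 17 lay within 0.25, of which 0 had a listed gene. The 3 nearest of any kind, at 0.0754, 0.119 and 0.168, have no listed gene. The nearest of them read 0.71 and 0.68 in RL4452 replicates 1 and 3, against -1.31 and -1.90 in those of Domain, close to Wx-A1 in every array. The nearest with a listed gene was LOC542941 at 0.321, which read -0.72, -1.80, 0.96 and 0.48. LOC778407, LOC543060, LOC543114 and LOC543103 followed at 0.719 to 0.783.

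Far more probe sets lay near AGP-S, whose range over the arrays was smaller than that of Wx-A1 (2.02-fold against 7.06-fold). Within 0.25 of AGP-S lay 3646 probe sets (5.96%), or 9.67% of those with a listed gene. The nearest of any kind, at 0.0153, has no listed gene. Those with a listed gene were LOC542880 at 0.0741, LOC543217 at 0.0811, LOC100049030 (NCBP, a cap-binding protein) and LOC543143, both at 0.0848, and LOC543242 at 0.0892. With values over only 4 arrays, many probe sets of small range are near each other. After quantile normalization 2 of the 5 probe sets with a listed gene stayed among the 5 nearest for Wx-A1, and 2 of 5 for AGP-S.

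**Figure D4:**
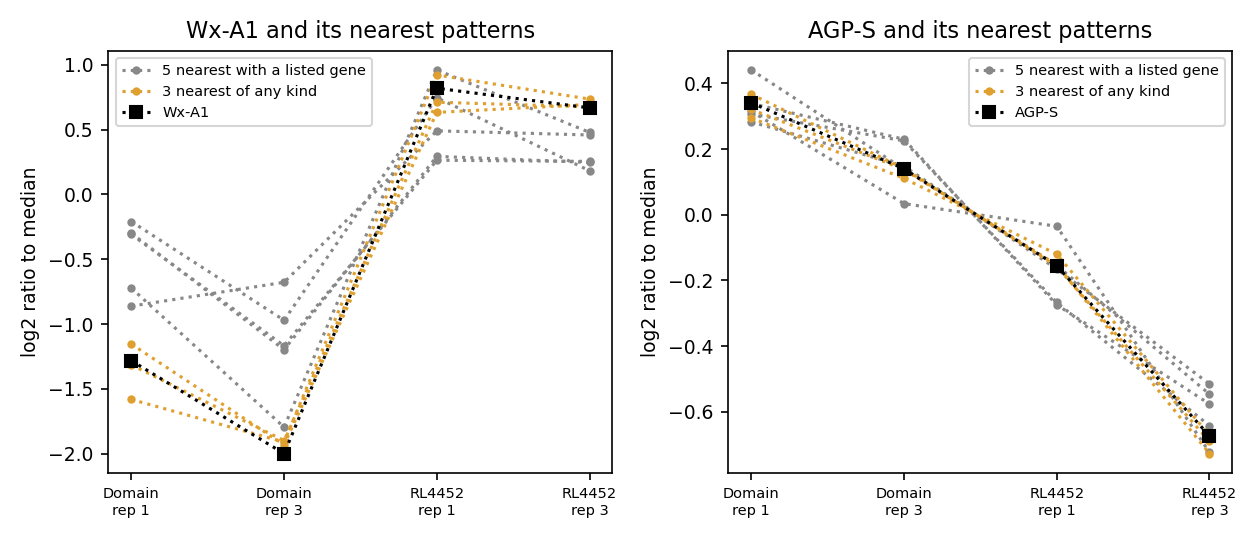
Log2 ratio to the probe set median (y axis) by array (x axis) for Wx-A1 and AGP-S (black squares), their 5 nearest probe sets with a listed gene (grey) and the 3 nearest of any kind (orange); dotted lines only join the points of a probe set. For Wx-A1 the orange profiles lie within 0.168 (root mean square) and the grey ones from 0.321 to 0.783 away, while all those of AGP-S lie within 0.0892.

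On median, markers of endosperm were highest in Domain replicate 3. The 11 gliadin and glutenin probe sets, of 6 genes that code for storage proteins, had a median of 0.50 in Domain replicate 3, against -0.01 in Domain replicate 1, -0.01 in RL4452 replicate 1 and -0.03 in RL4452 replicate 3. Of these, 10 had a lower mean in RL4452, as did 29348 of all 61179 tested probe sets. Within replicate 1, however, the RL4452 minus Domain differences of these probe sets went both ways, from -0.947 to 0.506. Within replicate 3 they ran from -4.485 to 0.069. The genotypes did not overlap in 3 of the 11, all lower in RL4452, against 15.5% of all tested probe sets. Limma called 0, with 0 at an unadjusted p under 0.05. The endosperm marker values ran from -0.49 to 0.33 in Domain replicate 1 and from -0.04 to 4.05 in Domain replicate 3. In the RL4452 arrays they ran from -0.62 to 0.36, a range like that of Domain replicate 1. Domain replicate 3 was also the array with the lowest Wx-A1 value (-2.00) and the highest value of the AGP-S cluster mate (2.47). The part of endosperm content in these values was not tested.

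The 5 probe sets of the Em genes, which mark maturing embryo, had medians from -0.15 to 0.14 over the arrays, and the 4 raftin probe sets, of an anther protein, from -0.06 to 0.04. Of the raftin probe sets 3 of 4 were lower in RL4452, 2 of them without overlap, against 15.5% of all tested probe sets, while 0 of the Em probe sets were without overlap. Both lists had 0 calls in limma and 0 probe sets at an unadjusted p under 0.05. No probe set matched the green tissue markers.

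**Figure D5:**
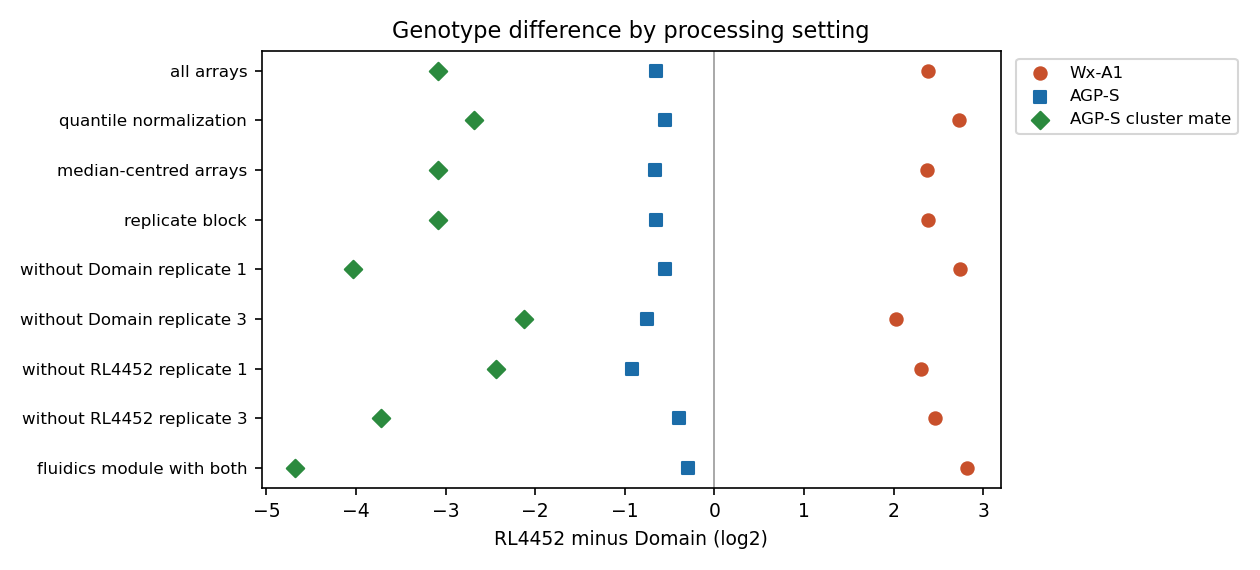
RL4452 minus Domain on the log2 scale (x axis) under each processing setting (y axis) for Wx-A1 (circles), AGP-S (squares) and the AGP-S cluster mate (diamonds). Wx-A1 stays between 2.03 and 2.82, AGP-S between -0.91 and -0.295, and the cluster mate between -4.68 and -2.13.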

How the data were processed

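PolyA RNA from seed was read on 4 arrays, 2 each of Domain and RL4452, grouped by their titles. RMA, an array summarization method, is named per the submitters' processing notes; its version is not given in the sources used here. The deposited values are linear ratios, and how the authors turned RMA values into ratios is not recorded there: the median over the arrays lay within 0.002 of 1 for 99.5% of 61290 features. Array settings are other deposited values, of which only the fluidics module and, per the file headers, hybridization day were read as possible batches. The ratios hold no signal over background, and precision is limited by the number of arrays.

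The ratios were log2-transformed, 111 AFFX control features were set aside, and 61179 probe sets were fitted with limma 3.58.1 (R 4.3.3), with genotype as the term. P-values were two-sided and borrow spread across probe sets (2.99 prior degrees of freedom). Replicates are labelled as biological, but whether each came from separate plots is not stated, so p-values measure the spread between these arrays.

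Gene names came from the array annotation (1273 probe sets, 771 genes; 59906 tested probe sets have none listed here), of which 770 genes were found in the gene table of IWGSC CS RefSeq v2.1. No coordinates or sequences were used. The members and lists were chosen with earlier results of these data known. Named were the members and their cluster, starch pathway probe sets with a listed gene, up to 10 by smallest p, and for each member the 5 nearest probe sets with a listed gene and the 3 nearest of any kind. The alternatives were quantile normalization, median-centring, each array left out, a replicate block, the shared fluidics module and a robust prior. Python 3.11.15, pandas 2.3.3, numpy 2.4.6 and matplotlib 3.10.9 made tables and plots.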

Additional observations from a re-analysis of the deposited data

How the results depend on the processing

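Under quantile normalization and median-centring the Wx-A1, AGP-S and cluster mate differences kept their direction. With genotypes that do not overlap, leaving out an array or taking the shared fluidics module cannot turn it, so only sizes are given. Over arrays left out, the differences ran from 2.03 to 2.74 for Wx-A1, from -0.91 to -0.40 for AGP-S and from -4.04 to -2.13 for the cluster mate. Within the shared fluidics module they were 2.82, -0.295 and -4.68, and the cause was not tested. Quantile normalization moved the Wx-A1 replicate difference from -0.717 to -0.484 in Domain and from -0.152 to -0.282 in RL4452. For AGP-S it moved from -0.201 to -0.167 in Domain and from -0.518 to -0.274 in RL4452. Limma called 0 probe sets with the replicate block (4555 at an unadjusted p under 0.05). Counts ran from 0 to 128 with an array left out, 0 without Domain replicate 1 (3292 at an unadjusted p under 0.05), 0 without Domain replicate 3 (3418) and 101 without RL4452 replicate 1, in each case with 1 array in a genotype assumed to vary like the other genotype. In this balanced layout the replicate block cannot change the member differences. The replicate numbers are not stated to pair arrays, and the replicate differences of the genotypes had a Pearson r of 0.143 across probe sets, which are not independent. The starch pathway list had 0 calls under every setting run, with 0 or 1 at an unadjusted p under 0.05. Of the 5 nearest probe sets with a listed gene, quantile normalization kept 2 for Wx-A1 and 2 for AGP-S. Calls and the starch list could not be fitted within the fluidics module, which holds 1 array per genotype.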

Other observations

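Enzymes of sugar and hexose phosphate metabolism, and of or near glycolysis, were listed by name after values had been seen, and are described here. The list held 11 probe sets of 7 genes, 7 higher and 4 lower in RL4452, with a median log2 difference of 0.21 against 0.01 over all tested probe sets. Limma called 0 of them (background 0.28%), and 2 had an unadjusted p under 0.05. GAPN, a glyceraldehyde phosphate dehydrogenase of the cytosol that makes NADPH, read 0.32 and 0.41 in Domain and -0.42 and -0.45 in RL4452 (log2, replicates 1 and 3), a difference of -0.80 with an SE of 0.17 (limma adjusted p = 0.409). Pgk-1 (LOC543496), by name a phosphoglycerate kinase, read 0.40 and 0.23 in Domain and -0.28 and -0.48 in RL4452. The difference was -0.70 with an SE of 0.19 (limma adjusted p = 0.582). Genotypes did not overlap in 3 probe sets lower in RL4452 (GAPN, Pgk-1 and 1 of FBP), against 15.5% of all tested probe sets, and in 1 higher there (of 6-FEH), against 17%.

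The 3 probe sets of 6-FEH (LOC780575), a fructan exohydrolase that releases fructose from stored fructan, had differences of 0.07, 0.48 and 0.22. The 2 of FBP, the fructose-1,6-bisphosphatase gene, had -0.30 and 0.36, and the 2 of PMM (LOC780594), a phosphomannomutase, had 0.39 and -0.33. Probe sets of the same gene thus lay on opposite sides of 0 in FBP and PMM.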
